A study of Mus musculus with 32 samples.

Results

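The genes described here are 10 myostatin, activin and follistatin genes: Mstn, Gdf11, Inhba, Inhbb, Fst, Fstl1, Fstl3, Acvr2a, Acvr2b and Bambi. Apart from Fstl1, they encode ligands, extracellular binders or receptors of the myostatin and activin pathway. The product of Fstl1 carries a follistatin-like domain, and the gene is grouped with them here. The 10 genes were taken by gene symbol from a table of 54532 genes, and all 10 were found. No cut on measured values was used, but the list was chosen with earlier results of these data known. RNA was sequenced from the tibialis anterior, a shin muscle, of C57BL/6J mice. The 8 groups of 4 libraries each were old mice and young mice that received vehicle and no injury; old mice given BI01, old mice given vehicle and young mice given vehicle, each 7 days after injury; and the same 3 kinds of mice 35 days after injury. BI01, which the labels call a senolytic and the series title describes as blocking the binding of p53 to MDM2, was studied in old injured mice only. Injury was made with BaCl, an agent that kills muscle fibres and starts their regrowth, and the uninjured groups carry the mark PBS in the table. The sources used here give no ages in months and no doses. Nothing in the labels ties each library to an animal of its own, so p-values measure the spread between these samples, which may be partly technical.

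Myostatin and its close relative GDF11, and the activins built from inhibin beta subunits, are secreted ligands of the TGF-beta family. They bind the type II receptors ACVR2A and ACVR2B, which then recruit a type I receptor such as ALK4 (gene Acvr1b) and lead to phosphorylation of SMAD2 and SMAD3. In muscle this signal restrains growth, and loss of myostatin gives very large muscles in mice and cattle. Follistatin and FSTL3 trap the ligands outside the cell, while BAMBI is a membrane protein that resembles a type I receptor and lacks its kinase.

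Libraries held between 14129350 and 30439358 counts. The uninjured columns carry the name of the 35-day set, so in day 7 against uninjured, and in day 35 against day 7, the time and the collection set cannot be told apart. Levels are given as counts per 1000000 counts of the library (CPM), scaled with the trimmed mean of M-values (TMM), and differences as log2 fold changes with standard error (SE). A gene was called where edgeR's quasi-likelihood test gave a Benjamini-Hochberg adjusted p under 0.05 over the 17121 genes tested. At day 7 against uninjured muscle, the groups did not overlap for 57% of all tested genes in old and 49.1% in young muscle. At day 35 against uninjured this share was 19.4% in old and 19.8% in young muscle. Between the ages it was 19.8% uninjured, 6.68% at day 7 and 16.5% at day 35. For day 35 against day 7 it was 53.7%, 51.7% and 50.4% in BI01, old vehicle and young muscle. With library size in place of TMM the median gene moved by 1.15 in old and 1.05 in young muscle at day 7 (log2), against 0.14 and 0.17 with TMM, so injury changes below are relative to that scaling. The share of called genes that were higher at day 7 was then 86.0% in old and 87.3% in young muscle, against 53.5% and 54.7% with TMM. At day 35 against uninjured it was 78.6% in young muscle, against 44.9% with TMM. Between old and young muscle that share was 78.0% uninjured and 85.7% at day 7 with library size alone, against 43.1% and 10.3% with TMM. For day 35 against day 7 it was 11.8%, 12.9% and 16.3% in BI01, old vehicle and young muscle with library size alone, against 47.1%, 46.7% and 47.0% with TMM. For the difference of day 7 responses between the ages it was 54.0%, against 41.8% with TMM. Markers of mature fibres, regenerating fibres, satellite cells, fibroblasts and macrophages were detected in all 32 libraries, as for the labelled tissue, while the heart markers Myh6 and Nppa did not pass the filter on low counts.

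All 10 genes passed that filter, which asked for about 0.588 CPM, here without TMM scaling, in at least 4 libraries. On that unscaled measure Inhba was above the level in 13 of the 32 libraries and in all 4 libraries of only the old vehicle and BI01 day 7 groups. Inhba thus passed through groups in which it was high, which conditions all its tests that involve day 7. Fstl3 was above the level in 21 libraries and, outside the day 7 groups, in all 4 libraries only of old vehicle day 35 muscle. Bambi was above it in 27 and, outside the day 7 groups, in all 4 libraries only of the old vehicle and BI01 day 35 groups. Both were above it in all 4 libraries of each day 7 group, and neither was so in an uninjured group. The other 7 genes were above it in all 32.

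The sequences of the promoters, from 250 bases before to 50 after the RefSeq start site in GRCm38.p6 (mm10), were matched for 8 of the 10 genes. Those of Mstn, Inhba and Fstl1, whose levels differed most after injury, are shown in lower case with motif matches in capitals. Both strands were searched for the E-box (CANNTG, bound by MyoD family factors), the SMAD box (CAGAC), a FoxO site (GTAAACA), an AP-1 site (TGANTCA), the TATA box (TATAAA) and the MEF2 site. All 3 lie on the plus strand, Mstn at chr1:53061390-53061689, Inhba at chr13:16011601-16011900 and Fstl1 at chr16:37776805-37777104.
Mstn: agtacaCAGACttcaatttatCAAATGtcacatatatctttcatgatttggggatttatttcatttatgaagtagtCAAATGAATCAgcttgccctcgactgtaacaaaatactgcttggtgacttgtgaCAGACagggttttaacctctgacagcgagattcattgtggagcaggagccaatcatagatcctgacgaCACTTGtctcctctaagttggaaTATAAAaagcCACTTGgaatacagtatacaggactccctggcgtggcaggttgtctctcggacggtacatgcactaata
Inhba: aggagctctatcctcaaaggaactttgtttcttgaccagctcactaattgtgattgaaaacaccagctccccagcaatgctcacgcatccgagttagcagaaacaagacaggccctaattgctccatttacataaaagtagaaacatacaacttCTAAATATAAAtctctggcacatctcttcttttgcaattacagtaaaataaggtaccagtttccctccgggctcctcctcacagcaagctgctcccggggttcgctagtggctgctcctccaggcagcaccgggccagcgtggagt
Fstl1: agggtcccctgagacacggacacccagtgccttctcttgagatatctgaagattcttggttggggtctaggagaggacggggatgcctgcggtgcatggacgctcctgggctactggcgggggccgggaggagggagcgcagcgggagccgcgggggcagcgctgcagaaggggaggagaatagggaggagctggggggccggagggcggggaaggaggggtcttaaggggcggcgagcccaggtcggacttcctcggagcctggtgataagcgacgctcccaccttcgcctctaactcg
The Mstn window held 4 E-boxes, whose first bases lie at -229, -174, -52 and -19 from the start site, and 2 SMAD boxes at -244 and -120. It also held an AP-1 site at -170, which overlaps the E-box at -174, and a TATA box at -29. The Inhba window held a TATA box at -91 that overlaps a MEF2 site at -96, and the Fstl1 window held no match. Of 32851 promoters of the same length, 72.3% held an E-box, 49.6% a SMAD box, 3.65% a FoxO site, 7.81% an AP-1 site, 13.6% a TATA box and 3.19% a MEF2 site. The RefSeq start site of Fstl1 lies 182 bases from the start of the gene in the deposited table.

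Among the ligands, Mstn fell at day 7 in both ages. Mstn (ENSMUSG00000026100; chromosome 1, 53061640 to 53068079, plus strand) encodes myostatin, made mainly by muscle fibres. In uninjured muscle it had 60.0, 73.5, 57.8 and 61.8 CPM in the old libraries, against 105, 60.5, 187 and 87.0 CPM in the young ones. At day 7 Mstn had 7.34, 4.59, 18.8 and 18.8 CPM in BI01 muscle, 1.77, 15.1, 15.5 and 19.5 CPM in old vehicle muscle, and 10.4, 10.01, 18.8 and 12.8 CPM in young muscle. At day 35 Mstn had 36.7, 48.3, 23.6 and 15.1 CPM in BI01 muscle, 19.6, 22.8, 24.1 and 28.8 CPM in old vehicle muscle, and 18.1, 24.7, 23.8 and 32.1 CPM in young muscle. Every injured library, at either time, lay below every uninjured one, and the 3 groups overlapped one another at each time after injury. The lowest value was in old vehicle day 7 library 7 and the highest in young uninjured library 3 (libraries carry the numbers of the table). At day 7 Mstn fell by 2.29 in old vehicle muscle (log2, SE 0.49, adjusted p = 0.0002) and by 3.08 in young muscle (SE 0.50, adjusted p = 7.43e-06), relative to uninjured muscle of the same age. At day 35 the young log2 fold change against uninjured muscle was -2.16 (SE 0.49, adjusted p = 0.00332). In old vehicle muscle the day 35 difference was -1.41 (SE 0.48) and missed the threshold (adjusted p = 0.0861). It passed with DESeq2 (adjusted p = 0.024) and when only the 2 groups were fitted (adjusted p = 3.58e-06). The difference between the ages in the day 35 response was 0.75, with a 95% interval from -0.55 to 2.05 (adjusted p = 0.738).

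From day 7 to day 35, Mstn rose in BI01 muscle by 1.33 (log2, SE 0.48, adjusted p = 0.0206). The day 35 against day 7 differences were 0.88 in old vehicle muscle and 0.92 in young muscle, and both missed the threshold (adjusted p = 0.113 and 0.103). The old vehicle difference was called with limma voom (1.41, adjusted p = 0.0202) and the young one when only the 2 groups were fitted (adjusted p = 0.00272). The BI01 call was lost without day 35 library 7 (adjusted p = 0.0941), day 7 library 1 (0.0712) or day 7 library 2 (0.0807), with library size alone (0.46, 0.362) and with genes of low count kept (0.0541). The BI01 effect did not differ detectably between the times (difference 0.44, 95% interval -0.87 to 1.75, adjusted p = 0.96).

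Mature fibre genes moved with Mstn at day 7, when fibres are being rebuilt. All 5 genes of that list (Acta1, Ckm, Myh4, Mylpf and Tnnt3) fell in old and 3 of 5 in young muscle, beside 29.8% and 27.5% of all genes called lower. None of the 5 was at 0 in any library. Their summed level was 20726 to 53168 CPM in BI01, 9073 to 52264 CPM in old vehicle and 57180 to 122322 CPM in young day 7 muscle. In uninjured muscle it was 163340 to 168028 CPM in old and 185551 to 246118 CPM in young libraries. At day 35 no gene of the list was called against uninjured muscle in either age, and the sums were 116515 to 185815 CPM in BI01, 133285 to 184819 CPM in old vehicle and 134324 to 181314 CPM in young muscle. In a bulk library, fewer fibres and less Mstn RNA per fibre cannot be told apart.

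Set against that sum, Mstn at day 35 stood at 0.147 to 0.160 CPM per 1000 CPM of mature fibre genes in old vehicle muscle, against 0.354 to 0.439 in old uninjured muscle. In young muscle the day 35 ratio was 0.131 to 0.204, against 0.281 to 0.759 without injury. Neither pair of groups overlapped, which by itself gives the smallest p that 4 against 4 libraries allow (two-sided exact permutation test, p = 0.0286, adjusted over the 8 ratio tests 0.0381). The differences of the mean log2 ratio were -1.29 in old and -1.58 in young muscle. Most counts of the mature fibre list were of Myh4 (32840144 over all libraries) and Acta1 (14894446), so the ratio leans on these genes. All 8 ratio tests were chosen after seeing the data, so their p-values are given as a description. At day 7 the ratio was 0.195 to 0.373 in old vehicle muscle, overlapping the old uninjured libraries (difference -0.29, exact permutation p = 0.286). In young muscle it was 0.105 to 0.236 at day 7, below all uninjured libraries (difference -1.48, exact permutation p = 0.0286, adjusted 0.0381).

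**Figure D1:**
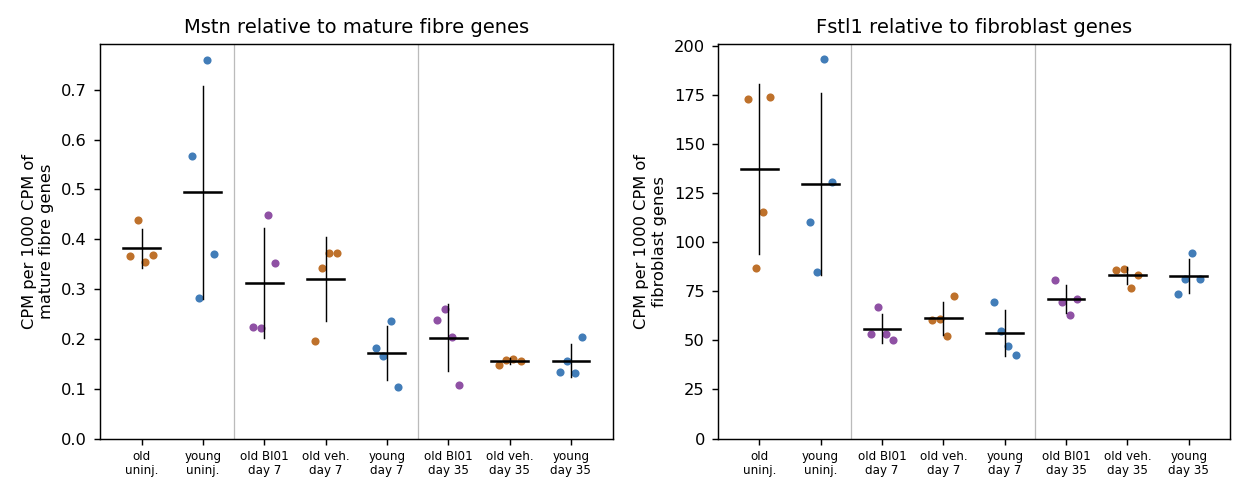
Mstn per 1000 CPM of 5 mature fibre genes and Fstl1 per 1000 CPM of 5 fibroblast genes, one point per library in each of the 8 groups. The Mstn ratio of the old vehicle and young day 35 libraries, 0.131 to 0.204, sits below that of all uninjured libraries, whose lowest value is 0.281.

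Gdf11 fell at day 35 in both ages. Gdf11 (ENSMUSG00000025352; chromosome 10, 128882295 to 128891718, minus strand) encodes the ligand closest to myostatin in sequence. Uninjured muscle had 33.3, 21.4, 28.8 and 13.2 CPM in old libraries, against 11.1, 7.30, 26.9 and 8.59 CPM in young ones. At day 7 Gdf11 had 5.88, 10.2, 8.48 and 7.60 CPM in BI01, 7.54, 8.59, 8.60 and 16.1 CPM in old vehicle, and 12.4, 7.93, 8.40 and 11.9 CPM in young muscle. At day 35 Gdf11 had 4.39, 4.03, 6.10 and 9.11 CPM in BI01, 9.27, 6.14, 4.99 and 7.29 CPM in old vehicle, and 5.23, 6.01, 5.34 and 3.84 CPM in young muscle. All day 35 libraries of both vehicle groups lay below all uninjured libraries of their age. Without injury, 3 of the 4 young libraries lay below all old ones, and young library 3 stood among the old values.

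At day 35 Gdf11 fell by 1.80 in old vehicle muscle (log2, SE 0.34, adjusted p = 0.00129) and by 1.39 in young muscle (SE 0.35, adjusted p = 0.00637). The young change shrank to -0.81 without young uninjured library 3 and missed the threshold (adjusted p = 0.113), as it did with limma voom (adjusted p = 0.0557). At day 7 Gdf11 fell by 1.24 in old vehicle muscle (SE 0.33, adjusted p = 0.00182), a call lost with library size alone (-0.25, adjusted p = 0.493), while in young muscle the difference was -0.41 (adjusted p = 0.297). The old and young day 7 responses differed by -0.83 (95% interval -1.76 to 0.09, adjusted p = 0.287). Between day 35 and day 7 Gdf11 was called under TMM in young muscle (-0.99, adjusted p = 0.0161), and that call was lost without young day 35 library 4 (adjusted p = 0.0544). In BI01 and old vehicle muscle the same differences were -0.44 and -0.56 (adjusted p = 0.274 and 0.159). With library size alone they were -1.33 and -1.48 and both called (adjusted p = 0.00122 and 0.000364). Old against young uninjured muscle gave 0.84 (SE 0.33), short of the threshold (adjusted p = 0.0934), and it passed without young uninjured library 3 (1.42, adjusted p = 0.00684) or without old uninjured library 9 (1.05, adjusted p = 0.0423).

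**Figure D2:**
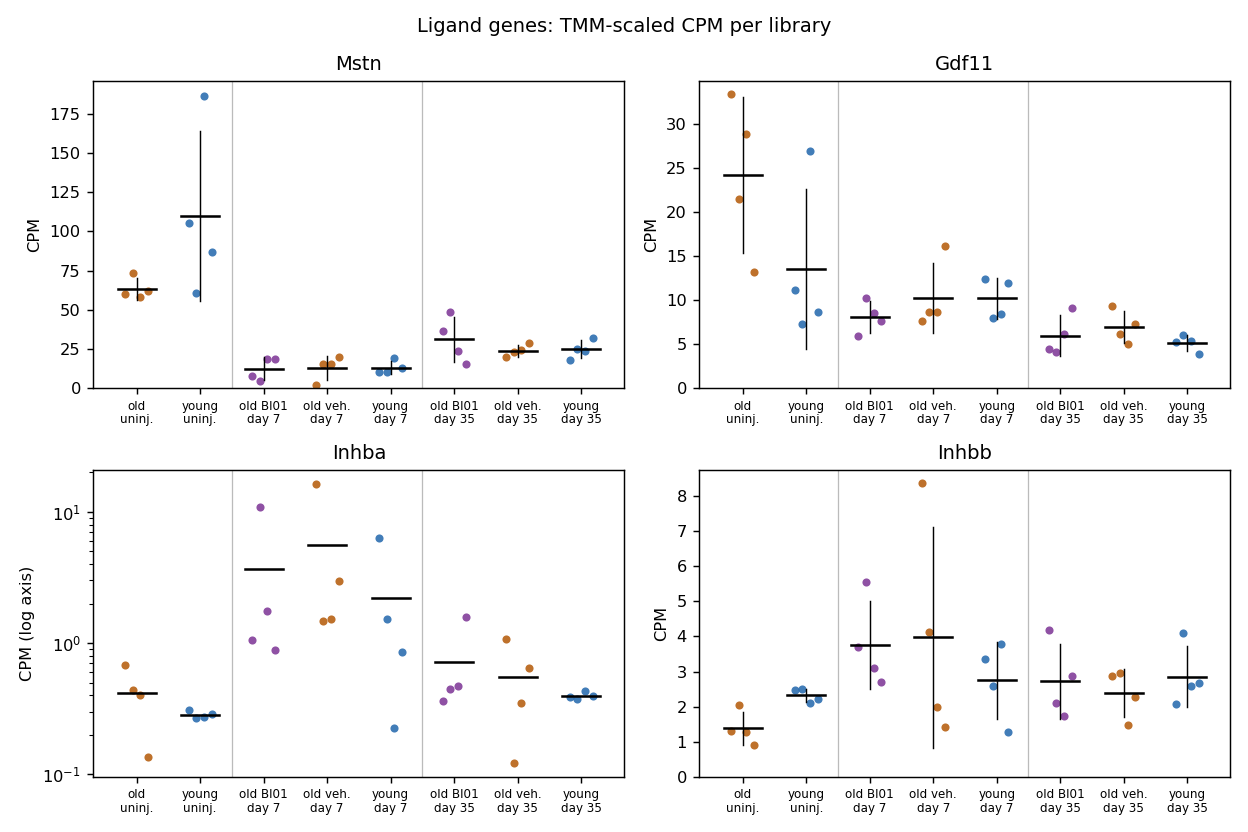
CPM of Mstn, Gdf11, Inhba (log axis) and Inhbb in every library of the 8 groups, one point per library, with the group mean as a bar and the SD as a vertical line on the linear panels. Mstn stands below 50 CPM in all injured libraries, and single day 7 libraries stand above the rest of their group in Inhba.

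Inhba was called higher at day 7 in both ages, with one library above the rest in each group. Inhba (ENSMUSG00000041324; chromosome 13, 16011851 to 16031621, plus strand) encodes the inhibin beta A subunit, which pairs with itself to form activin A. Uninjured muscle had 0.687, 0.438, 0.400 and 0.136 CPM in old libraries, against 0.309, 0.267, 0.276 and 0.289 CPM in young ones. At day 7 Inhba had 1.05, 11.0, 1.75 and 0.884 CPM in BI01, 16.4, 1.46, 1.54 and 2.96 CPM in old vehicle, and 6.28, 1.53, 0.225 and 0.856 CPM in young muscle. At day 35 Inhba had 0.360, 0.448, 0.469 and 1.58 CPM in BI01, 1.08, 0.123, 0.352 and 0.648 CPM in old vehicle, and 0.387, 0.372, 0.433 and 0.392 CPM in young muscle. All 8 day 7 libraries of old mice lay above all old uninjured ones, while one young day 7 library lay below the young uninjured ones. The day 7 rise was 3.78 in old vehicle muscle (log2, SE 0.94, adjusted p = 0.000924) and 2.94 in young muscle (SE 1.01, adjusted p = 0.0135). Since Inhba entered the fit through its day 7 groups, these tests give no independent support for the rise. Without the highest library, old vehicle day 7 library 7, the old rise was 2.28 and still called (adjusted p = 0.022). Without young day 7 library 4 the young value was 1.59 and no longer called (adjusted p = 0.176), nor was it with limma voom (adjusted p = 0.256).

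Inhba fell by 2.36 in BI01 muscle (log2, adjusted p = 0.0245), by 3.34 in old vehicle muscle (adjusted p = 0.00266) and by 2.49 in young muscle (adjusted p = 0.0255) at day 35 relative to day 7. As Inhba entered the fit through its day 7 groups, these tests give no independent support for the falls either. Without the highest day 7 library of each group the log2 fold changes were -0.78, -1.84 and -1.13 and none was called (adjusted p = 0.448, 0.0629 and 0.322). The BI01 and young calls were also lost with limma voom (adjusted p = 0.154 and 0.314), with genes of low count kept (0.0682 and 0.071) and without any one of 3 day 35 libraries each (BI01 6, 7 and 8, and young 1, 2 and 4; 0.0532 to 0.0704). Those 3 libraries, BI01 day 7 library 2, old vehicle day 7 library 7 and young day 7 library 4, also had the lowest mature fibre sum of their group, at 20726, 9073 and 57180 CPM. The next lowest sums were 32891 CPM in BI01 library 1, 41553 CPM in old vehicle library 9 and 60120.5 CPM in young library 5. In young muscle the lowest sum thus lay close to the next. Old vehicle day 7 library 7 had in addition the lowest regenerating fibre sum of its group, 2891 CPM, and the highest macrophage sum, 1990 CPM, and fibroblast sum, 12019 CPM. The part of these differences in the Inhba values was not tested.

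**Figure D3:**
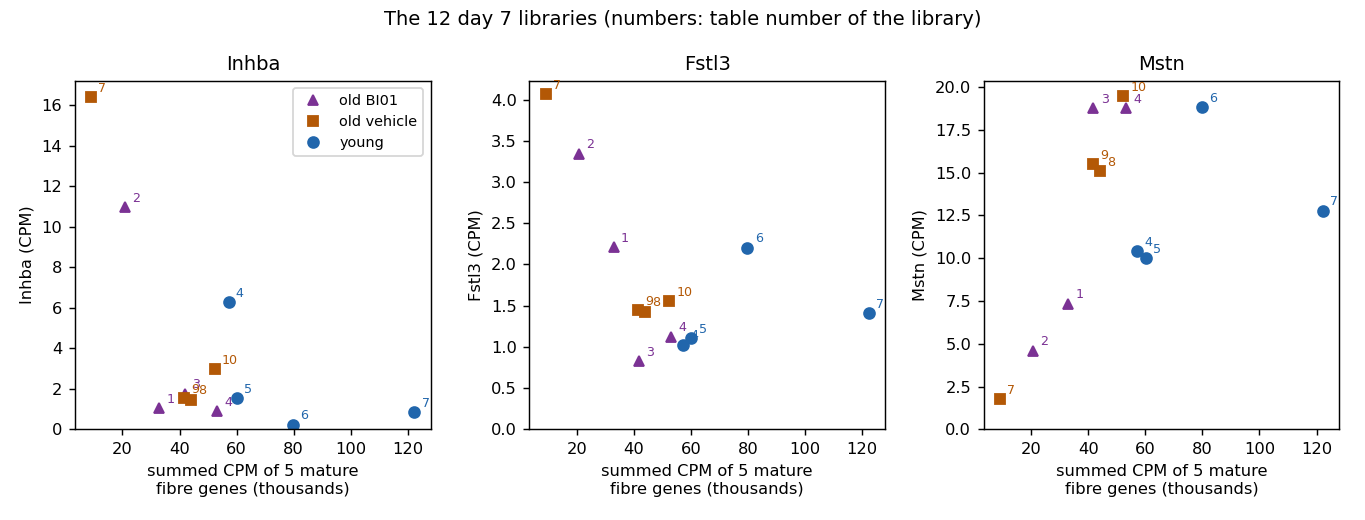
Inhba, Fstl3 and Mstn CPM of the 12 day 7 libraries against the summed CPM of 5 mature fibre genes in the same library, each point labelled with its number in the table. The library with the lowest fibre sum in each group has the highest Inhba value of that group, 11.0 CPM in BI01, 16.4 CPM in old vehicle and 6.28 CPM in young muscle. In young muscle that fibre sum, 57180 CPM, lies close to the next, 60120.5 CPM.

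Inhbb (ENSMUSG00000037035; chromosome 1, 119415465 to 119422248, minus strand) encodes the beta B subunit of activin B, and it rose in old muscle at day 7. It had 1.30, 2.03, 1.28 and 0.904 CPM in old uninjured libraries, against 2.47, 2.49, 2.12 and 2.22 CPM in young ones, and these groups did not overlap. At day 7 Inhbb had 3.71, 5.54, 3.11 and 2.69 CPM in BI01, 8.38, 4.13, 1.97 and 1.41 CPM in old vehicle, and 3.36, 2.59, 3.77 and 1.28 CPM in young muscle. At day 35 Inhbb had 4.17, 2.09, 1.74 and 2.87 CPM in BI01, 2.86, 2.95, 1.48 and 2.27 CPM in old vehicle, and 2.07, 4.09, 2.60 and 2.66 CPM in young muscle. After injury the groups overlapped at both times, with the highest value again in old vehicle day 7 library 7. The old day 7 rise of 1.52 (log2, SE 0.43, adjusted p = 0.0026) became 0.85 without that library (adjusted p = 0.0649). In young muscle the day 7 difference was 0.25 (adjusted p = 0.627), and with library size alone it was 1.16 and called (adjusted p = 0.0279). At day 35 against day 7 no arm was called under TMM, while library size alone called -1.38 in BI01 (adjusted p = 0.00893) and -1.76 in old vehicle muscle (adjusted p = 0.00118). The responses of the ages differed by 1.27 (95% interval 0.10 to 2.45), which did not pass (adjusted p = 0.188). Without injury the old against young difference was -0.74 and was not called (adjusted p = 0.278).

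Among the binders, Fst rose after injury at both times and in both ages. Fst (ENSMUSG00000021765; chromosome 13, 114452290 to 114458951, minus strand) encodes follistatin, which encloses activins and myostatin and keeps them from their receptors. Uninjured muscle had 1.45, 2.15, 0.800 and 1.85 CPM in old libraries, against 1.47, 2.05, 1.75 and 1.45 CPM in young ones. At day 7 Fst had 9.03, 4.43, 7.48 and 8.32 CPM in BI01, 6.64, 4.90, 7.41 and 4.99 CPM in old vehicle, and 6.84, 4.75, 6.92 and 3.61 CPM in young muscle. At day 35 Fst had 3.81, 1.79, 4.76 and 5.81 CPM in BI01, 5.97, 6.39, 7.53 and 4.29 CPM in old vehicle, and 4.52, 4.20, 3.03 and 3.06 CPM in young muscle. Every injured library lay above every uninjured one except BI01 day 35 library 7, which stood within the uninjured range. The day 7 rise was 1.90 in old vehicle muscle (log2, SE 0.32, adjusted p = 5.63e-06) and 1.72 in young muscle (SE 0.33, adjusted p = 3.96e-05). The day 35 rise was 1.91 in old vehicle muscle (SE 0.32, adjusted p = 0.000313) and 1.14 in young muscle (SE 0.33, adjusted p = 0.0173). The young day 35 call was lost without young uninjured library 1 (adjusted p = 0.0588), without young day 35 library 1 (adjusted p = 0.0582) and with limma voom (adjusted p = 0.119).

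The ages differed in the day 35 Fst response by 0.77 (95% interval -0.13 to 1.67, adjusted p = 0.593). Between day 35 and day 7 Fst fell by 0.85 in BI01 muscle (log2, adjusted p = 0.0178). The same difference was 0.02 in old vehicle muscle (adjusted p = 0.968; -0.94 with library size alone) and -0.58 in young muscle (adjusted p = 0.107; -1.26 and called with library size alone, 0.00159). The BI01 call was lost without day 35 library 7 (-0.61, adjusted p = 0.0912), without day 7 library 1 (adjusted p = 0.0613) and when only the 2 groups were fitted (adjusted p = 0.0541). The BI01 effect at day 35 minus that at day 7 was -0.87 (95% interval -1.70 to -0.03, adjusted p = 0.921). Fst overlaps Gm47040 on the other strand over 289 bases, and that gene had 14 counts against 2946 of Fst.

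Fstl1 showed the largest day 7 change of the 10 genes. Fstl1 (ENSMUSG00000022816; chromosome 16, 37776873 to 37836514, plus strand) encodes a secreted glycoprotein with a follistatin-like domain that is abundant in mesenchymal cells. Uninjured muscle had 32.7, 25.1, 18.3 and 12.8 CPM in old libraries, against 9.28, 21.4, 14.9 and 33.8 CPM in young ones. At day 7 Fstl1 had 464, 503, 380.3 and 301 CPM in BI01, 724, 513, 383 and 678 CPM in old vehicle, and 641, 498, 437 and 256 CPM in young muscle. At day 35 Fstl1 had 60.1, 17.5, 55.1 and 92.5 CPM in BI01, 71.6, 68.3, 53.2 and 52.6 CPM in old vehicle, and 42.0, 45.9, 45.2 and 25.5 CPM in young muscle. All day 7 libraries lay far above all others, and the old vehicle day 35 libraries lay above all uninjured ones. The day 7 rise was 4.69 in old vehicle muscle (log2, SE 0.43, adjusted p = 2.61e-10) and 4.53 in young muscle (SE 0.43, adjusted p = 5.67e-10). By day 35 it had fallen relative to day 7, with log2 fold changes of -2.87 in BI01 (adjusted p = 5.75e-07), -3.22 in old vehicle (adjusted p = 8.81e-08) and -3.53 in young muscle (adjusted p = 3.72e-08).

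Relative to uninjured muscle, Fstl1 at day 35 was 1.47 higher in old vehicle muscle (log2, SE 0.38, adjusted p = 0.0183). That call was lost without old uninjured library 8 (adjusted p = 0.0704) or 9 (0.0829), without old vehicle day 35 library 6 (0.0522) or 7 (0.0506), and with genes of low count kept (0.0594). In young muscle the day 35 difference was 1.00 and was not called (adjusted p = 0.0725). It was called without young uninjured library 4 (1.39, adjusted p = 0.0161) and with DESeq2 (adjusted p = 0.0484).

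Fibroblast genes moved with Fstl1. At day 7, 4 of the 5 genes of that list (Pdgfra, Col1a1, Col3a1, Dpt and Pi16) rose in both ages, and none was at 0 in any library. Of all tested genes, 34.4% were called higher at day 7 in old and 33.3% in young muscle. The 5 genes rose by much in sum. Their sum was 5972 to 8741 CPM in BI01, 7372 to 12019 CPM in old vehicle and 5993 to 9233 CPM in young day 7 muscle, against 73.6 to 290 CPM in the old and 77.1 to 258 CPM in the young uninjured libraries. At day 35 it was 251 to 1306 CPM in BI01, 631 to 835 CPM in old vehicle and 313 to 570 CPM in young muscle. The lowest BI01 day 35 sum, 251 CPM, was that of library 7, the library with the lowest Fstl1 level of its group. Per 1000 CPM of these genes, Fstl1 stood at 52.0 to 72.3 CPM in old vehicle day 7 muscle, against 86.7 to 174 CPM in old uninjured muscle. In young muscle it stood at 42.7 to 69.6 CPM at day 7, against 84.6 to 193 CPM without injury. The ratio was thus lower at day 7 in both ages (mean log2 differences of -1.11 in old and -1.23 in young muscle; exact permutation p = 0.0286, adjusted 0.0381, in each). At day 35 it was 76.6 to 86.3 CPM in old vehicle muscle (difference -0.67, exact permutation p = 0.0286, adjusted 0.0381). In young muscle it was 73.8 to 94.6 CPM, overlapping the uninjured libraries (difference -0.59, exact permutation p = 0.0571, adjusted 0.0653). Most counts of the list were of Col1a1 (1268010 over all libraries) and Col3a1 (1378062), so the ratio leans on these collagen genes. Pdgfra had 19470 counts, Dpt 29771 and Pi16 18313. The median log2 fold change of the list at day 7 was 2.58 in old and 2.15 in young muscle, below the 4.69 and 4.53 of Fstl1. The part of the fibroblast genes in the Fstl1 change was not tested.

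Fstl3 (ENSMUSG00000020325; chromosome 10, 79777272 to 79782630, plus strand) encodes a second soluble trap for activins and myostatin, and its levels were near the limit of detection, with 798 counts over all 32 libraries. Uninjured muscle had 0.610, 0.995, 0.800 and 0.814 CPM in old libraries, against 0.541, 0.712, 0.920 and 0.193 CPM in young ones. At day 7 Fstl3 had 2.21, 3.34, 0.823 and 1.13 CPM in BI01, 4.06, 1.42, 1.45 and 1.55 CPM in old vehicle, and 1.03, 1.10, 2.20 and 1.41 CPM in young muscle. At day 35 Fstl3 had 0.360, 0.821, 0.201 and 0.359 CPM in BI01, 1.52, 0.798, 1.06 and 2.27 CPM in old vehicle, and 0.646, 0.106, 0.289 and 0.392 CPM in young muscle. Both vehicle groups lay above their uninjured libraries at day 7, and at day 35 all old vehicle libraries lay above all young ones. The day 7 rise was 1.38 in old vehicle muscle (log2, SE 0.52, adjusted p = 0.02) and 1.26 in young muscle (SE 0.55, adjusted p = 0.0466). The old call was lost without day 7 library 7 (0.85, adjusted p = 0.168) or uninjured library 6 (adjusted p = 0.0545). The young call was lost without any one of 5 libraries (uninjured 1, 2 and 4, and 6 and 7 of day 7), with adjusted p between 0.0607 and 0.152, with genes of low count kept (0.0948), with limma voom (0.0926) and when only the 2 groups were fitted (0.0606). The mature fibre sum of old vehicle day 7 library 7 was the lowest of its group, as given above, and its part in the Fstl3 value was not tested.

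At day 35 Fstl3 was 1.97 higher in old vehicle than in young muscle (log2, SE 0.57, adjusted p = 0.0475), the only call between the ages among the 10 genes. It was lost without any one of 6 libraries (old vehicle 6, 8 and 9; young 2, 3 and 4), with adjusted p between 0.0687 and 0.188, and also with library size alone (0.0635), with genes of low count kept (0.0987) and with limma voom (0.139). In BI01 muscle at day 35 Fstl3 was -1.68 relative to old vehicle muscle (95% interval -2.79 to -0.58). With an unadjusted p of 0.00536 and an adjusted p of 1 this was not called, and BI01 library 7 overlapped the vehicle libraries. Between day 35 and day 7, Fstl3 fell by 2.11 in BI01 muscle (adjusted p = 0.00178) and by 2.00 in young muscle (adjusted p = 0.00343), while the difference in old vehicle muscle was -0.60 (adjusted p = 0.312). With library size alone the old vehicle difference was -1.62 and called (adjusted p = 0.00724). The BI01 effect at day 35 minus that at day 7 was -1.51 (95% interval -2.96 to -0.05, adjusted p = 0.921). Fstl3 overlaps Prss57 on the other strand over 1157 bases, and that gene had 16 counts in all.

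Among the receptors, Acvr2a fell at day 7 under TMM. Acvr2a (ENSMUSG00000052155; chromosome 2, 48814109 to 48903269, plus strand) encodes a type II receptor that binds activins and myostatin. Uninjured muscle had 42.3, 53.5, 59.6 and 58.0 CPM in old libraries, against 45.6, 35.6, 84.2 and 37.9 CPM in young ones. At day 7 Acvr2a had 33.6, 22.0, 32.6 and 29.2 CPM in BI01, 23.7, 37.7, 28.4 and 34.1 CPM in old vehicle, and 30.9, 28.4, 30.5 and 29.1 CPM in young muscle. At day 35 Acvr2a had 36.9, 50.1, 37.2 and 39.6 CPM in BI01, 42.4, 41.3, 41.4 and 40.7 CPM in old vehicle, and 27.1, 32.7, 34.2 and 30.4 CPM in young muscle. Vehicle libraries at day 7 lay below uninjured libraries of their age, and young day 35 libraries lay below all young uninjured ones. The day 7 change was -0.79 in old vehicle muscle (log2, SE 0.19, adjusted p = 0.000652) and -0.78 in young muscle (SE 0.19, adjusted p = 0.000855), and with library size alone it turned to 0.20 and 0.12 and was not called. At day 35 Acvr2a fell by 0.71 in young muscle (SE 0.19, adjusted p = 0.011), a call lost without young uninjured library 3 (-0.35, adjusted p = 0.185), with library size alone (adjusted p = 0.0648) and when only the 2 groups were fitted (adjusted p = 0.0671). In old vehicle muscle the day 35 difference was -0.36 (adjusted p = 0.334). Between day 35 and day 7 Acvr2a rose in BI01 muscle by 0.48 (adjusted p = 0.0322) under TMM, while library size alone gave -0.40. That call was lost without day 35 library 7, day 7 library 2 or day 7 library 4, with adjusted p between 0.0557 and 0.134, and with RLE factors (0.0754) or DESeq2 (0.0791). In old vehicle and young muscle the day 35 against day 7 differences were 0.42 (adjusted p = 0.0575) and 0.07 (adjusted p = 0.787). The end of Acvr2a overlaps Orc4 on the other strand over 446 bases. Orc4 had 10421 counts and Acvr2a 21906, and whether the counting used strand is not stated.

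Acvr2b (ENSMUSG00000061393; chromosome 9, 119402118 to 119434995, plus strand) encodes the type II receptor with high affinity for myostatin, and it rose between day 7 and day 35 in all 3 arms. Uninjured muscle had 9.001, 6.57, 11.8 and 12.2 CPM in old libraries, against 4.64, 15.4, 9.20 and 12.3 CPM in young ones. At day 7 Acvr2b had 6.48, 2.56, 4.08 and 5.22 CPM in BI01, 2.00, 5.88, 3.90 and 9.17 CPM in old vehicle, and 4.47, 3.65, 4.49 and 6.18 CPM in young muscle. At day 35 Acvr2b had 26.2, 25.2, 19.7 and 17.8 CPM in BI01, 17.2, 15.05, 19.0 and 19.8 CPM in old vehicle, and 12.2, 25.5, 20.3 and 13.6 CPM in young muscle. Every day 35 library lay above every day 7 library, and the old vehicle and BI01 day 35 libraries also lay above all old uninjured ones. Relative to day 7, Acvr2b at day 35 rose by 2.28 in BI01 muscle (log2, SE 0.36, adjusted p = 3.12e-06), by 1.77 in old vehicle muscle (SE 0.35, adjusted p = 7.79e-05) and by 1.94 in young muscle (SE 0.35, adjusted p = 3.22e-05). These 3 calls held under every alternative run.

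Relative to uninjured muscle, Acvr2b at day 7 gave -0.92 in old vehicle muscle (log2, SE 0.35, adjusted p = 0.0216), which with library size alone was 0.04 (adjusted p = 0.92), and -1.14 in young muscle (SE 0.36, adjusted p = 0.00643), which with library size alone was -0.27 (adjusted p = 0.452). The old call was lost without uninjured library 8 or 9, without day 7 library 7 or 9 (adjusted p between 0.0557 and 0.0917) and when only the 2 groups were fitted (adjusted p = 0.0833). At day 35 the differences from uninjured muscle were 0.84 in old vehicle (adjusted p = 0.174) and 0.79 in young muscle (adjusted p = 0.119). The old difference was called when only the 2 groups were fitted (adjusted p = 0.00611), and the young one without young uninjured library 2 (1.05, adjusted p = 0.0493) and with library size alone (1.00, adjusted p = 0.0257). Acvr2b shares 3909 bases with Gm47320 on the other strand, which had 364 counts against 5973 of Acvr2b.

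Bambi (ENSMUSG00000024232; chromosome 18, 3507957 to 3516404, plus strand), the decoy receptor of the family, rose at day 7 in both ages from a low level. Uninjured muscle had 1.45, 0.916, 0.720 and 0.497 CPM in old libraries, against 0.309, 0.890, 0 and 1.35 CPM in young ones. The count of 0, in young library 3, allows a level of up to 0.276 CPM (3 counts, counting error only). At day 7 Bambi had 1.01, 3.29, 3.58 and 2.29 CPM in BI01, 3.48, 1.17, 2.50 and 1.36 CPM in old vehicle, and 1.38, 2.54, 1.80 and 2.02 CPM in young muscle. At day 35 Bambi had 1.80, 2.84, 2.81 and 1.79 CPM in BI01, 2.86, 2.58, 1.69 and 2.75 CPM in old vehicle, and 1.23, 0.691, 1.37 and 1.49 CPM in young muscle. Young day 7 libraries lay above all young uninjured ones, while in old vehicle muscle the day 7 and uninjured libraries overlapped and the day 35 libraries did not overlap the uninjured ones. The day 7 rise was 1.27 in old vehicle muscle (log2, SE 0.51, adjusted p = 0.0307) and 1.61 in young muscle (SE 0.55, adjusted p = 0.0121). The old call was lost without any one of 5 libraries (uninjured 7, 8 and 9, and 7 and 9 of day 7), with adjusted p between 0.0547 and 0.139, and the young call when only the 2 groups were fitted (adjusted p = 0.0587). At day 35 the differences were 1.48 in old vehicle (adjusted p = 0.0964; 0.0229 with DESeq2) and 0.91 in young muscle (adjusted p = 0.284). At day 35 against day 7 young Bambi was -0.70 (adjusted p = 0.242), and with library size alone -1.35 and called (adjusted p = 0.0282).

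**Figure D4:**
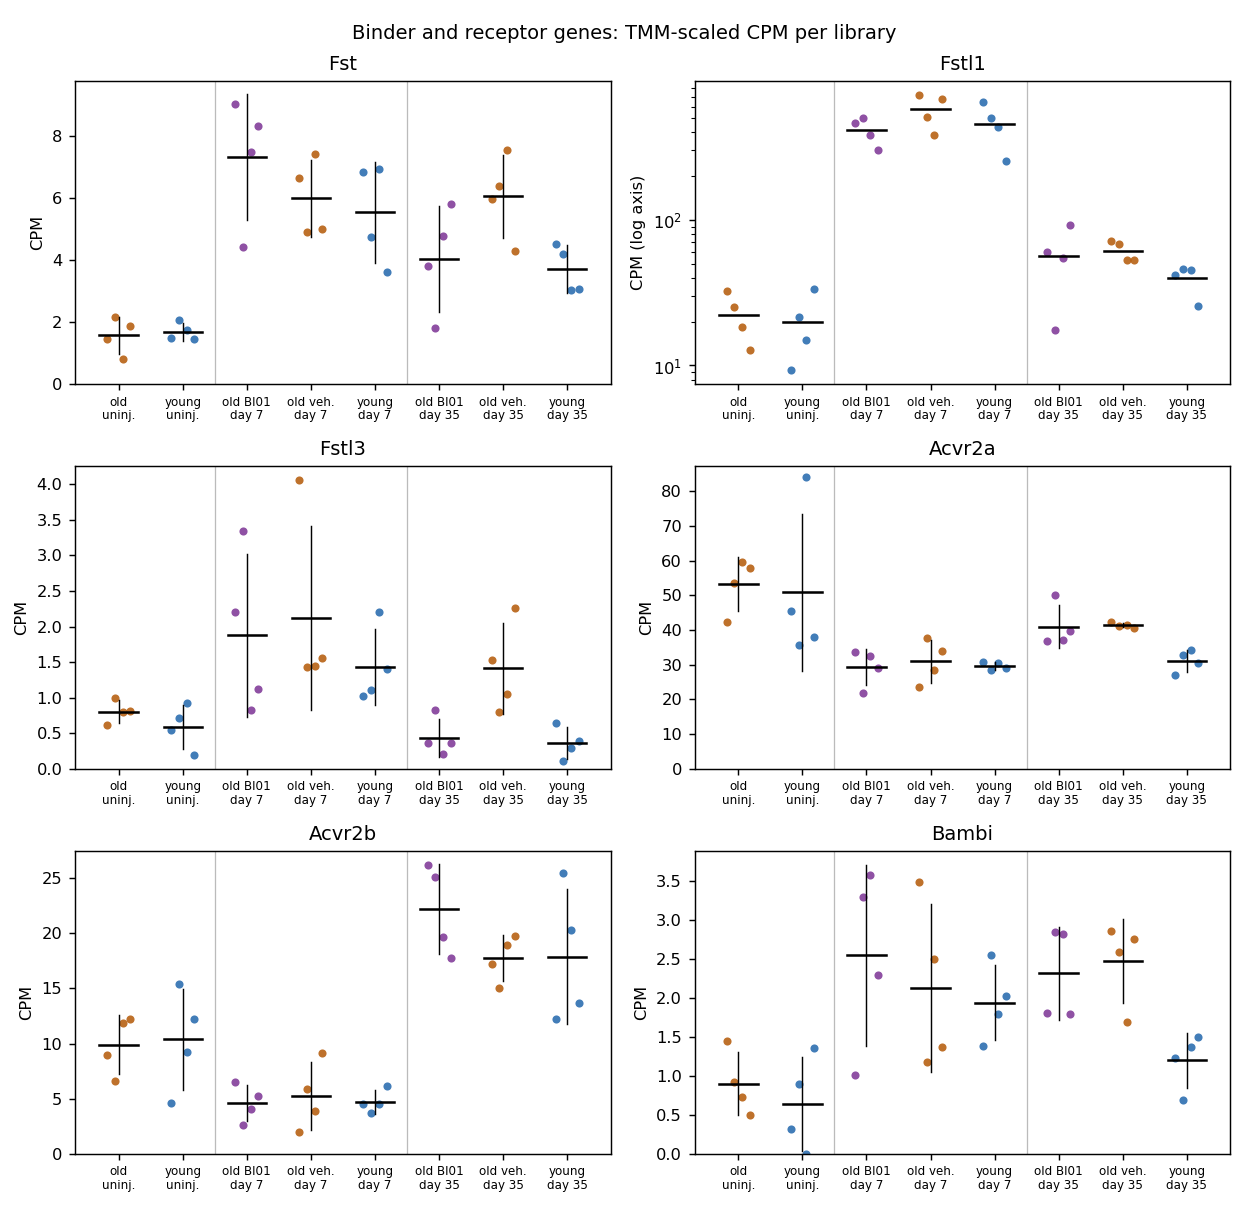
CPM of Fst, Fstl1 (log axis), Fstl3, Acvr2a, Acvr2b and Bambi in every library of the 8 groups, one point per library, with the group mean as a bar and the SD as a vertical line on the linear panels. Fstl1 stands between 256 and 724 CPM in the day 7 libraries, and Acvr2b is higher in all day 35 libraries than in any day 7 library.

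Corrected for gene length, as CPM per kilobase of gene length (RPKM), Mstn had the highest level of the 10 genes in uninjured muscle, with group means of 23.4 RPKM in old libraries and 40.6 RPKM in young ones. Acvr2a followed at 9.38 RPKM (old) and 8.94 RPKM (young), and Inhba was lowest at 0.065 and 0.0447 RPKM. Fstl1 led at day 7, with 83.9 RPKM in BI01, 117 RPKM in old vehicle and 93.2 RPKM in young muscle, while Mstn had 4.57, 4.79 and 4.81 RPKM in the same order of groups. At day 35 Fstl1 and Mstn stood close together, at 11.5 and 11.4 RPKM in BI01, 12.5 and 8.81 RPKM in old vehicle, and 8.07 and 9.12 RPKM in young muscle.

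Ordered by mean CPM, the groups of Mstn ran from uninjured through day 35 to day 7, and neighbours in that order did not overlap at 2 places, between old uninjured and BI01 day 35 muscle and between old vehicle day 35 and young day 7 muscle. The uninjured groups led, with 63.2 ± 7.00 CPM in old libraries and 110 ± 54.5 CPM in young ones (SD, n = 4 each). The day 35 groups followed at 30.9 ± 14.6 CPM in BI01, 23.8 ± 3.84 CPM in old vehicle and 24.7 ± 5.77 CPM in young muscle, and the day 7 groups were last at 12.4 ± 7.48, 13.0 ± 7.71 and 13.0 ± 4.07 CPM in the same order. The lowest BI01 and young day 35 libraries, at 15.1 and 18.1 CPM, lay within the range of the day 7 libraries, which reached 19.5 CPM. For Fstl1 the one break between neighbours lay below the 3 day 7 groups, for Fst above the uninjured groups and for Acvr2a between the BI01 and young day 35 groups. Inhba and Inhbb showed a break only above their lowest group, which was young uninjured muscle for Inhba and old uninjured muscle for Inhbb. These breaks concern neighbours only, and groups further up the order reached into or below both lowest groups. Inhba fell to 0.123 CPM in old vehicle day 35 muscle, below all young uninjured libraries (lowest 0.267 CPM). Inhbb reached 1.28 CPM in young day 7 muscle, within the old uninjured range of 0.904 to 2.03 CPM. Gdf11, Fstl3, Acvr2b and Bambi showed no break, so each of their groups overlapped the next in order.

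Counted over the 10 genes, injury moved most of them at day 7. In old vehicle muscle 6 rose and 4 fell at day 7, where 64.2% of all tested genes were called. In young muscle 5 rose and 3 fell, where 60.8% of all tested genes were called, and with most tested genes called these counts say little that is particular to the 10 genes. Of all tested genes, 34.4% were called higher and 29.8% lower in old muscle, and 33.3% and 27.5% in young muscle. The median log2 fold change of the 10 genes at day 7 was 1.33 in old and 0.76 in young muscle, beside 0.14 and 0.17 over all genes tested. At day 35 against uninjured muscle, 2 rose and 1 fell in old vehicle muscle (background 5.64%), and 1 rose and 3 fell in young muscle (background 15.7%). The median there was 0.78 in old and 0.38 in young muscle, beside 0.02 and 0.13 over all genes. Between day 35 and day 7, 3 rose and 4 fell in BI01 muscle (background 55.6%), 1 rose and 2 fell in old vehicle muscle (background 58.9%), and 1 rose and 4 fell in young muscle (background 55.3%). These comparisons share libraries, so their counts are not independent of one another.

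**Figure D5:**
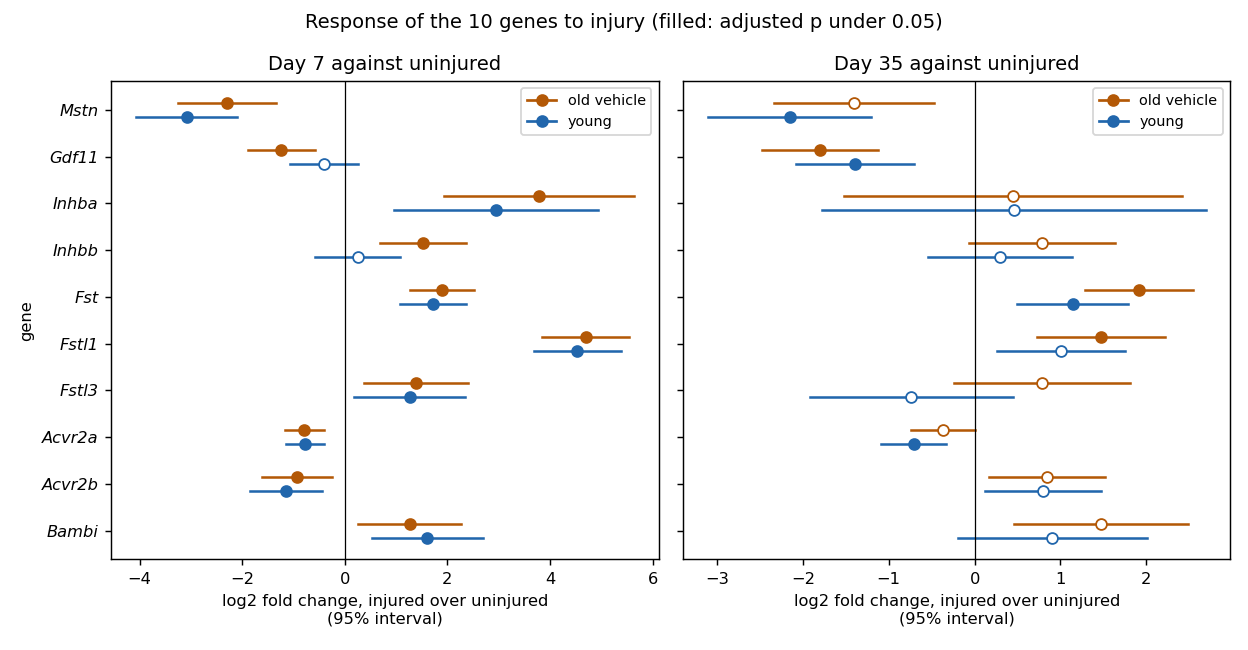
Log2 fold changes of the 10 genes against uninjured muscle of the same age at day 7 and at day 35, old vehicle above young for each gene, with 95% intervals and filled points where the adjusted p is under 0.05. Fstl1 at day 7 lies furthest right, at 4.69 in old and 4.53 in young muscle, and Mstn furthest left, at -2.29 and -3.08.

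Between the ages, none of the 10 genes was called in uninjured muscle, where 13.4% of all genes were, or at day 7, where 2.43% were. Their uninjured differences lay between -0.80 for Mstn (95% interval -1.71 to 0.12) and 0.84 for Gdf11 (0.18 to 1.50). At day 7 the widest was that of Inhba, 1.32 (95% interval -0.26 to 2.89, adjusted p = 0.383), and that of Mstn was -0.01 (-0.94 to 0.92). At day 35, 1 of the 10 was called, Fstl3 as given above, where 3.51% of all genes were. Bambi followed with 1.06 (0.06 to 2.05, adjusted p = 0.31) and Fst with 0.70 (0.10 to 1.30, adjusted p = 0.24), neither of which passed. The test of whether the injury response differed between the ages called none of the 10 at day 7, where 7.7% of all genes were called, and none at day 35, where 0% were. At day 35 that 0% was by edgeR, with 1690 genes at an unadjusted p under 0.05 and 31 called by DESeq2.

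Between BI01 and vehicle in old muscle, none of the 10 genes was called at day 7 or at day 35. Neither was any other gene (0% at each time by edgeR, with 1126 and 530 genes at an unadjusted p under 0.05, and 1 and 12 called by DESeq2). At day 7 the differences of the 10 genes lay between -0.60 for Inhba (95% interval -2.14 to 0.93) and 0.29 for Fst (-0.29 to 0.86). At day 35 they lay between -1.68 for Fstl3 and 0.38 for Mstn (95% interval -0.55 to 1.30), with Fst at -0.58 (-1.18 to 0.02). The test of whether the BI01 effect differed between the times called none of the 10 and 0% of all genes (825 at an unadjusted p under 0.05, 2 by DESeq2).

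A list of 50 further genes of the pathway and of its BMP arm, of which 42 were tested, was fitted beside them. At day 7, 13 rose and 13 fell in old vehicle muscle (64.2% of all genes called) and 11 rose and 18 fell in young muscle (60.8%), so both counts are near their background. At day 35, 2 rose and 2 fell in old vehicle muscle (5.64% of all genes) and 2 rose and 13 fell in young muscle (15.7%). The difference of day 35 responses between the ages was called for 0 of the 42 (0% of all genes). Between old and young muscle without injury 2 rose and 8 fell (13.4% of all genes), and no gene of the list was called between BI01 and vehicle at either time (0% of all genes). The list's median log2 fold change at day 7 was 0.30 in old and -0.07 in young muscle.

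A list of further ligand subunits and processing proteases had 5 tested genes, Inha, Furin, Pcsk5, Bmp1 and Tll1. Of these, 3 rose and none fell in old muscle at day 7 (64.2% of all genes called), and 3 rose and 1 fell in young muscle (60.8%). Bmp1, a protease that frees myostatin from its propeptide, averaged 129 ± 50.04 CPM at day 7 in old vehicle muscle and 11.0 ± 4.49 CPM without injury (SD, n = 4 each), a rise of 3.56 (log2, adjusted p = 3.48e-11). In young muscle it averaged 105 ± 22.5 CPM at day 7 and 9.05 ± 2.44 CPM without injury, a rise of 3.54 (adjusted p = 5.83e-11). Bmp1 was also higher at day 35, by 1.12 in old vehicle muscle (adjusted p = 0.0128) and by 1.20 in young muscle (adjusted p = 0.00449), and the old call was lost without old uninjured library 8 or 9 or day 35 library 6. Pcsk5, a proprotein convertase, rose at day 7 by 3.95 in old vehicle muscle (adjusted p = 9.16e-08) and by 2.74 in young muscle (adjusted p = 4.46e-05). Tll1, a protease related to Bmp1, rose by 2.59 in old vehicle muscle (adjusted p = 1.24e-05). In young muscle Tll1 averaged 1.46 ± 0.413 CPM at day 7 and 0.897 ± 0.487 CPM without injury, and it was not called (log2 fold change 1.62 and called with library size alone, adjusted p = 0.00266).

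Among 6 other receptors tested, 1 rose and 2 fell in old and 1 rose and 4 fell in young muscle at day 7, beside 64.2% and 60.8% of all genes called. Acvr1b, which encodes the type I receptor ALK4, averaged 31.7 ± 5.81 CPM in old vehicle day 7 muscle and 106 ± 15.6 CPM in old uninjured muscle (log2 fold change -1.74, adjusted p = 3.28e-09). It averaged 33.6 ± 1.67 CPM in young day 7 muscle and 196 ± 33.7 CPM in young uninjured muscle (-2.54, adjusted p = 5.82e-12). Acvr1b was also lower in old than in young muscle, with log2 fold changes of -0.89 without injury (adjusted p = 0.00186) and -1.16 at day 35 (82.0 ± 18.3 CPM in old vehicle and 184 ± 7.05 CPM in young muscle; adjusted p = 0.000235). These Acvr1b calls held under every alternative run. Tgfbr2, the type II receptor for TGF-beta itself, rose at day 7 by 1.95 in old vehicle (adjusted p = 3.96e-11) and by 1.15 in young muscle (adjusted p = 5.17e-07). The responses of Tgfbr2 differed between the ages by 0.80 (adjusted p = 0.0299), a call lost without any one of 7 libraries and when only the groups compared were fitted (adjusted p between 0.0532 and 0.124). Tgfbr1, a type I receptor that can also carry myostatin signals, fell at day 35 by 0.68 in old vehicle muscle (adjusted p = 0.0361) and by 0.83 in young muscle (adjusted p = 0.00469). The old Tgfbr1 call was lost with library size alone (adjusted p = 0.0748) and without any one of 6 libraries, and the young one without young uninjured library 3 (adjusted p = 0.0535). At day 7 Tgfbr1 was called in young muscle (-0.47, adjusted p = 0.0412), but library size alone gave 0.42 (adjusted p = 0.0707). The call was also lost with RLE factors, low counts kept, voom, DESeq2 or only the 2 groups fitted (adjusted p between 0.0502 and 0.125), and without any one of 4 libraries (0.0526 to 0.284).

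Of the 4 other binders tested, Wfikkn2 fell most. It encodes GASP-1, a secreted protein that binds myostatin and GDF11. Wfikkn2 averaged 1.78 ± 1.11 CPM in old vehicle day 7 muscle and 26.4 ± 0.944 CPM in old uninjured muscle (log2 fold change -3.89, adjusted p = 3.05e-10). In young muscle it averaged 2.85 ± 1.25 CPM at day 7 and 34.9 ± 5.33 CPM without injury (-3.63, adjusted p = 9.81e-10). It remained low at day 35, at 7.10 ± 2.05 CPM in old vehicle muscle (-1.89, adjusted p = 0.000625) and 13.2 ± 1.99 CPM in young muscle (-1.41, adjusted p = 0.00383). Its 4 calls against uninjured muscle held under every alternative run. Wfikkn1, which encodes the related GASP-2, stood under 2 CPM in every group mean and was not called. Dcn, which encodes the matrix proteoglycan decorin, rose at day 7 by 0.86 in old (adjusted p = 0.00912) and by 0.97 in young muscle (adjusted p = 0.00393).

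Of the 10 genes that transmit or brake the SMAD2/3 signal, 2 rose and 6 fell in old and 1 rose and 6 fell in young muscle at day 7, beside 64.2% and 60.8% of all genes called. Smad7, an inhibitory SMAD, fell by 1.46 in old vehicle muscle (adjusted p = 4.51e-07) and by 1.78 in young muscle (adjusted p = 2.16e-08), and the old call was lost with library size alone (-0.42, adjusted p = 0.109). Ppm1a, a phosphatase that can act on SMAD2 and SMAD3, fell by 2.04 in old vehicle muscle (adjusted p = 6.44e-13) and by 1.81 in young muscle (adjusted p = 5.79e-12). Smad4, the SMAD shared with the BMP arm, fell by 1.63 in young muscle (adjusted p = 2.23e-10). In old vehicle muscle the Smad4 change was -0.72 (adjusted p = 0.000104), with 0.28 under library size alone. The Smad4 responses of the ages differed by 0.91 (adjusted p = 0.00996), a call lost when only the groups compared were fitted (adjusted p = 0.0688). Of these 10 genes, 0 were called at day 35 in old vehicle muscle (5.64% of all genes called) and 6 fell in young muscle (15.7%), and whether the ages differ in this was not tested as a count. Gene by gene, the difference of day 35 responses between the ages was called for 0 of the 10 (0% of all genes). Their median log2 fold change at day 35 was -0.28 in old vehicle and -0.47 in young muscle. Fitting only the 2 groups called Smad7 (adjusted p = 0.0181) and Ppm1a (adjusted p = 0.0488) in old vehicle muscle. The young Ppm1a call (-0.40, adjusted p = 0.04) was then lost (adjusted p = 0.0535), as it was with library size alone (0.176), with low counts kept (0.147) and without any one of 6 libraries (0.0707 to 0.129).

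The genes whose 8 group means of log2 CPM were most like those of a member differed from member to member. The likeness is Pearson's r over the 8 group means, given as a description, and the means share libraries and scaling. For Mstn they were Dcaf5 (r = 0.997), Traf6 (0.996) and Kif3c (0.996). For Fstl1 they were the matrix genes Col5a1 (0.999) and Fbn1 (0.998), and Pde5a (0.999). The closest to Inhba were Zc3h12a (0.995) and Trim14 (0.994). The closest gene was Mindy4 for Inhbb (0.973), Lipo3 for Gdf11 (0.979), Rap1gap2 for Fst (0.976), Abhd17c for Fstl3 (0.970), C1galt1 for Acvr2a (0.986), Col4a3 for Acvr2b (0.989) and Tm4sf1 for Bambi (0.980).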

How the data were processed

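The authors deposited 1 table of raw gene counts for 32 libraries, made from reads aligned with HISAT2 (version not given) to mm10 per the submitters' processing notes. RNA was prepared with the Qiagen miRNeasy kit per the labels. For the counting tool, annotation release and strand setting, the sources used here say nothing. Columns were matched to samples by name. From the deposited counts, R 4.3.3 and edgeR 4.0.16 fitted 1 mean for each of 8 groups (TMM, robust quasi-likelihood, filterByExpr with a minimum count of 10), with 12 comparisons of groups and 3 differences of differences. Alternatives were library size alone, RLE factors, other filters, limma 3.58.1 voom, DESeq2 1.42.0, fits of the compared groups only and each library left out. Intervals are 95%, from the SE. Exact tests used scipy 1.17.1. Members, gene lists and tests were chosen with earlier results of these data known. Beside the 10 genes, the text names for each list the genes with the smallest p (at most 3 a comparison), 7 set partners of the members and up to 3 genes most like each member in pattern (1 of them is not reported here). Heart markers Myh6 and Nppa had 47 and 25 counts. No pair of libraries was alike within sampling noise (lowest chi-square per gene 12.5). Counts give more precision to Fstl1 or Mstn than to Inhba, Fstl3 and Bambi.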

Additional observations from a re-analysis of the deposited data

Results flagged for a closer look

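Of 80 sets of 4 libraries, each being 1 gene in 1 group, 5 had a library far from the other 3 by Dixon's criterion, where chance flags about 1 in 20. In old vehicle day 7 muscle, library 7 had 16.4 CPM of Inhba, with the others between 1.46 and 2.96 CPM, and 4.06 CPM of Fstl3, with the others between 1.42 and 1.55 CPM. In the same group library 10 had 16.1 CPM of Gdf11, with the others between 7.54 and 8.60 CPM. In BI01 day 7 muscle, library 2 had 11.0 CPM of Inhba, with the others between 0.884 and 1.75 CPM. In BI01 day 35 muscle, library 9 had 1.58 CPM of Inhba, with the others between 0.360 and 0.469 CPM.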

How the results depend on the processing

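Of 2593 recomputed values of the 10 genes, 2323 kept their direction and side of the threshold, 83 lost their call and 34 gained one, and 146 not called under either setting changed sign. The other 7 changed sign while called under one of the settings, all with library size alone: Acvr2a against uninjured muscle at day 7 (0.20 old vehicle, 0.12 young), Acvr2a at day 35 against day 7 (-0.40 BI01, -0.51 old vehicle, -0.60 young), Acvr2b in old vehicle muscle at day 7 (0.038) and Fst in old vehicle muscle at day 35 against day 7 (-0.94). Of 4425 values of 17 named pathway genes, 4049 kept both, 98 lost and 59 gained a call, 210 uncalled under both settings changed sign, and 9 changed sign while called, again with library size alone: Tgfbr1 in young muscle at day 7 (0.42), Smad4 and Acvr1 in old vehicle muscle at day 7 (0.28 and 0.84), and at day 35 against day 7 Smad4 (-0.16 BI01, -0.53 old vehicle), Acvr1 and Dcn (-0.95 and -0.75, old vehicle) and Smad7 (-0.21 BI01, -0.079 old vehicle). The cause of these shifts was not tested. Inhba could not be fitted where the filter dropped it.

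Counts of the 10 genes called moved as follows. With library size alone they were 1 between the uninjured ages, where 2504 of the 17121 genes tested were called. In that setting they were 8 in old vehicle and 8 in young muscle at day 35 against day 7, where 12213 and 10298 of all genes were called. Between the ages at day 35 it was 0, where 504 of all genes were called. With genes of low count kept the last was 0, and with voom it was 0, beside 5 in old vehicle muscle at day 35 against day 7 and 2 in young muscle at day 35. DESeq2 gave 5 in old vehicle muscle at day 35. Fitting only the compared groups gave 5 in young muscle at day 7, 7 in old vehicle muscle at day 35 and 4 between the ages at day 35. Leaving out the 3 day 7 libraries lowest in fibre markers gave 6 in old vehicle muscle at day 7 and 3 in young muscle at day 35 against day 7.

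Over all genes, counts called with low counts kept were 1524 between the uninjured ages, 171 between the ages at day 7, 817 for the difference of day 7 responses and 1 for that of day 35 responses. Fitting only the compared groups gave 1411, 0, 173 and 1 for these, 2600 in old vehicle muscle at day 35 and 1950 between the ages at day 35. DESeq2 gave 862 between the ages at day 7 and 919 at day 35, 2030 and 31 for the differences of day 7 and day 35 responses, 1 and 12 for BI01 at day 7 and day 35, and 2 for the change of its effect. Library size alone gave 712 and voom 1263 between the ages at day 7, and 2 and 1 for the difference of day 35 responses.

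With 1 library left out, the number of the 10 genes called was 0 to 1 between the uninjured ages (1 without young 3 or old 9), 6 to 10 in old vehicle muscle at day 7 (6 without day 7 library 7), 2 to 5 in young muscle at day 35 (2 without young uninjured 3), 3 to 5 in young muscle and 3 to 7 in BI01 muscle at day 35 against day 7 (3 without BI01 day 35 library 7), and 0 to 1 between the ages at day 35. Over all genes it was 1013 to 2850 between the uninjured ages, 556 to 885 in old vehicle and 1309 to 3103 in young muscle at day 35, 7 to 1012 and 330 to 442 between the ages at day 7 and day 35, 0 to 54 for BI01 at day 7, and 573 to 2152 and 0 to 40 for the differences of day 7 and day 35 responses. In old vehicle muscle at day 7 it was 10234 to 10901 genes. At day 35 against day 7 it was 8735 to 9497 genes in young and 8670 to 9451 in BI01 muscle.

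A replicate block on the table numbers of the 35-day set, chosen with the fibre-marker and ratio alternatives after seeing the data, gave 5 of the 10 genes in old vehicle muscle at day 35, 1602 genes there, 4113 in young muscle and 5 for the difference of responses. It called Mstn in old vehicle muscle (adjusted p = 0.00537) and Acvr2b in old vehicle (0.00725) and young muscle (0.00747). Same-numbered libraries correlated at 0.01 to 0.11 in old and -0.03 to 0.16 in young mice. Day 35 libraries 1, 3 and 4 of young and 8 and 9 of old vehicle mice correlated best with their own number, and young 2 and old 6 and 7 did not. Old vehicle day 7 libraries 7, 8 and 9 also correlated best with the uninjured library of their number (0.152, 0.041 and 0.062). No label states a pairing, so none was fitted in the main tests, and these correlations cannot exclude one. Low counts limit Inhba, Fstl3 and Bambi most.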

Other observations

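In the BMP arm, which runs beside the myostatin and activin arm and uses SMAD1 and SMAD5, 6 of 17 tested genes rose and 4 fell in old vehicle muscle at day 7, and 5 rose and 6 fell in young muscle, shares near the 64.2% and 60.8% of all genes called there. Id2, a target of BMP signals that restrains differentiation, averaged 22.6 ± 12.7 CPM in old vehicle day 7 muscle and 3.36 ± 1.24 CPM in old uninjured muscle (SD, n = 4 each), a rise of 2.75 (log2, adjusted p = 1.04e-07 by edgeR). In young muscle Id2 averaged 10.2 ± 3.67 CPM at day 7 and 1.43 ± 0.720 CPM without injury, a rise of 2.83 (adjusted p = 3.29e-07). Bmp6, a BMP ligand, averaged 4.07 ± 1.12 CPM in old vehicle day 7 muscle and 10.1 ± 1.46 CPM in old uninjured muscle (log2 fold change -1.32, adjusted p = 3.28e-05, lost with library size alone at adjusted p = 0.231). In young muscle Bmp6 averaged 4.73 ± 1.59 CPM at day 7 and 13.4 ± 1.04 CPM without injury (-1.50, adjusted p = 5.98e-06). Acvr1, a type I receptor of this arm, was higher in old vehicle than in young muscle at day 35 (24.3 ± 3.34 CPM in old vehicle and 13.6 ± 2.46 CPM in young muscle; 0.84, adjusted p = 0.00604), and no alternative changed that call.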
